A study of Mus musculus with 38 samples.

Results

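Transcripts of 39 enzyme genes that carry glucose through glycolysis, lactate formation, pyruvate entry and the citric acid cycle were examined in mouse cortical collecting ducts (CCDs). The members were chosen by the reaction they catalyse or regulate, with earlier results of these data known. They were 15 glycolytic genes (the regulator Pfkfb3 included), the 2 lactate dehydrogenases, 8 genes of pyruvate entry into mitochondria and 14 citric acid cycle genes. The genes of the cytosolic enzymes Idh1 and Mdh1 were counted with the cycle. Of the 39, 35 were among the 5035 genes listed in a table of the saline and dDAVP libraries, and all 39 were among the 55416 genes of a second table. Hk2, Pfkm, Pdk1 and Pdk4 were not listed in the first table, which holds only genes above 10 TPM in every library. TPM, the transcript's share of its library scaled to a fixed total, is a level per transcript length, so levels of different genes can be compared within a library.

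The CCDs had been microdissected by hand from kidneys of C57BL/6 mice. In the first RNA-seq experiment, wild-type mice had received saline (4 libraries) or dDAVP (4 libraries) for 5 days by infusion. dDAVP, or desmopressin, is a vasopressin analog that acts on the V2 receptor and raises cyclic AMP in collecting duct cells. ATAC-seq, which measures how open chromatin is, compared 3 saline with 3 dDAVP libraries of the same kind of mouse. The second RNA-seq table held 24 libraries, 3 for each of 4 WT and 4 MT units, where MT carries a mutation of serine 552 of β-catenin, a site that protein kinase A phosphorylates. Every one of these 24 libraries was also labelled as dDAVP-treated and C57BL/6, whereas the name of the table speaks of no vasopressin. Their treatment is therefore uncertain, and only the titles separate WT from MT. The labels do not say whether a unit or a library was 1 animal, so p-values measure the spread between these samples, which may be technical in part. A change of 1 residue leaves no mark in a TPM table, so the genotype labels were not checked here. The labels name no driver, clone or pool of animals.

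Glycolysis splits glucose into pyruvate in the cytosol. Lactate dehydrogenase interconverts pyruvate and lactate; its Ldha-encoded subunit favours lactate formation and its Ldhb-encoded subunit favours lactate use. In mitochondria the pyruvate dehydrogenase complex turns pyruvate into acetyl-CoA, the pyruvate dehydrogenase kinases switch that complex off, and the citric acid cycle oxidises the acetyl group and feeds electrons to the respiratory chain. The CCD is built of principal cells, which take up water through aquaporin 2 under vasopressin, and of intercalated cells, which secrete acid or base.

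Some libraries of the dDAVP table stood apart. The median correlation of a library with the others was lowest for saline libraries 3 and 4, at 0.863 and 0.839, against 0.913 to 0.934 for the remaining libraries. Umod, a thick ascending limb gene, was at 5253 TPM in dDAVP library 1 and at 21.0 to 825 TPM in the others. Slc34a1, a proximal tubule gene, was at 2286 TPM in saline library 3 and at 27.2 to 427 TPM in the others. The title of dDAVP library 4 also carries the number 3. The transcript of the principal cell channel Aqp2, at 20171 ± 1573 TPM under saline (SD, n = 4), and all 12 intercalated cell markers were present, as the CCD label requires.

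Ldha was the only one of the 35 listed members whose transcript differed between dDAVP and saline past the threshold (limma test with Benjamini-Hochberg (BH) adjustment over all genes, adjusted p under 0.05), and it rose. Its level rose by a ratio of 1.86, while its partner Ldhb had lower values in every dDAVP library than in any saline library without passing the threshold. The start of Ldha and its surroundings are shown first, beside those of Ldhb, of Aldoc, and of the other members whose promoter windows hold the same cyclic AMP response element. Each sequence is the 250 bases before an annotated transcription start site, from RefSeq on GRCm38.p6, read 5′ to 3′ on the strand of the gene. Capitals mark the letters TGACGTCA (the full element), TGACG (its shorter core), and ACGTG or GCGTG (the core of hypoxia response elements), on either strand. The letters CACGTG (the E-box) include ACGTG, and TGACGTCA includes TGACG, so these matches overlap.

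Ldha, chr7:46845554-46845803, plus strand: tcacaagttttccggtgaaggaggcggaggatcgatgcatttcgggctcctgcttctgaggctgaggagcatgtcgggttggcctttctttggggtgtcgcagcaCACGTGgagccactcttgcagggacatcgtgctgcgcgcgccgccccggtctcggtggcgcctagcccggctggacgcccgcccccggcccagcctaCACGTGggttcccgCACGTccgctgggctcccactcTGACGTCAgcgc
Ldhb, chr6:142507958-142508207, minus strand: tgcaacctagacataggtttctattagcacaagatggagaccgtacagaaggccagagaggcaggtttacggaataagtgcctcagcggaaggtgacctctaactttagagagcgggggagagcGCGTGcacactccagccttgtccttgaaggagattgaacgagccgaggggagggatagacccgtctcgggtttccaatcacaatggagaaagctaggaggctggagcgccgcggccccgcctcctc
Aldoc, chr11:78322823-78323072, plus strand: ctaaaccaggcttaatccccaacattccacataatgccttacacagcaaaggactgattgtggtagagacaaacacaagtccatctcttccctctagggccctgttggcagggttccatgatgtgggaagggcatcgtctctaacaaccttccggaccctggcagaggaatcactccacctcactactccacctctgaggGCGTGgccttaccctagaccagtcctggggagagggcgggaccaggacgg
Mdh2, chr5:135778399-135778648, plus strand: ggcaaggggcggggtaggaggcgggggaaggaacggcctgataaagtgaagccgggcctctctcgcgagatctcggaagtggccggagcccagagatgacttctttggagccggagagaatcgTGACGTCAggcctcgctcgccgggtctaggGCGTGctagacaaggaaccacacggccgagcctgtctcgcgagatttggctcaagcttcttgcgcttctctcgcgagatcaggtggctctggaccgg
Ogdh, chr11:6291347-6291596, plus strand: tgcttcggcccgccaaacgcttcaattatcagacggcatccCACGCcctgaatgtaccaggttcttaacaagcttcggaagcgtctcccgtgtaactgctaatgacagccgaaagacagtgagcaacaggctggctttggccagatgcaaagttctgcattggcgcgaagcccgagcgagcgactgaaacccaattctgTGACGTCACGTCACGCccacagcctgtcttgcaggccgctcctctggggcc

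In the Ldha window shown, the full element begins 12 bases before the start site, and CACGTG begins 48 and 145 bases before it. The 250 bases before a second annotated Ldha start site hold no full element. In Mdh2 the full element begins 127 bases before the start site, and in Ogdh 51 bases before the start site shown. Windows of 300 bases, from 250 before to 50 after a start site, were searched for all genes. They were found for 38 of the 39 members, in 58 windows; Idh3a had none. TGACGTCA was in 1.79% of all 32851 windows and in a window of 2.03% of the 27025 genes, and 3 of 38 members (7.89%) had it. These were Ldha, Mdh2 and Ogdh. TGACG was in 20.8% of windows and 23.0% of genes, and in 16 members (42.1%). ACGTG or GCGTG was in 43.8% of windows and 46.7% of genes, and in 29 members (76.3%). CACGTG was in 7.15% of windows and 8.09% of genes, and in 5 members (13.2%). The members had 58 windows for 38 genes, against 32851 for 27025 over all genes. More windows give a gene more chances of a match. The shares of genes were adjusted neither for this nor for expression. A match describes letters only. The transcripts of the 3 genes with TGACGTCA did not move alike under dDAVP: the log2 fold change was 0.90 for Ldha, -0.21 for Mdh2 and -0.58 for Ogdh, of which the first alone passed the threshold.

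Ldha (ENSMUSG00000063229, chromosome 7, 46842274 to 46855627 on GRCm38.p6) stood at 1228, 1661, 1550 and 1699 TPM in the saline libraries and at 2516, 2725, 3059 and 3144 TPM in the dDAVP libraries. The groups were far apart: the lowest dDAVP library was well above the highest saline library. The mean went from 1535 ± 214 (SD, n = 4) to 2861 ± 292 TPM (SD, n = 4), a ratio of 1.86 and a log2 fold change of 0.90 (SE 0.15, limma BH-adjusted p = 0.0208). Of all 5035 genes 0.695% passed the threshold in either direction and 0.556% passed with higher values. In the authors' deposited table the log2 fold change of Ldha was 0.9 with an adjusted p of 0.00243. The adjusted p of the limma test sat near the threshold. It was between 0.0186 and 0.0962 when single libraries were left out, and it missed the threshold without saline library 1 or 2 or without dDAVP library 2, 3 or 4. The call also ended when the variance was not fitted with a trend (adjusted p = 0.111).

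Ldhb (ENSMUSG00000030246, chromosome 6, 142490249 to 142507957) was by far the more abundant lactate dehydrogenase transcript. Its levels were 8658, 7505, 6607 and 7960 TPM under saline and 5941, 6086, 5910 and 5157 TPM under dDAVP. Again the groups did not overlap, here with dDAVP the lower, but the difference did not pass (mean 7683 ± 859 against 5773 ± 418 TPM, SD, n = 4 each; log2 fold change -0.41, SE 0.14, limma BH-adjusted p = 0.315). Of all genes, 5.02% had non-overlapping groups with dDAVP lower and 3.56% with dDAVP higher.

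Taken per library, Ldha made up 12.4%, 18.1%, 19.0% and 17.6% of the summed lactate dehydrogenase TPM under saline. Under dDAVP its share was 29.8%, 30.9%, 34.1% and 37.9%. The share was thus higher in every dDAVP library than in any saline library (16.8 ± 2.97% against 33.2 ± 3.64%, SD, n = 4 each). The sum of the pair was 9217 ± 768 TPM under saline and 8634 ± 309 TPM under dDAVP, and these ranges overlapped (8158 to 9886 against 8301 to 8969 TPM). Ldhb remained the majority transcript in all 8 libraries.

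**Figure D1:**
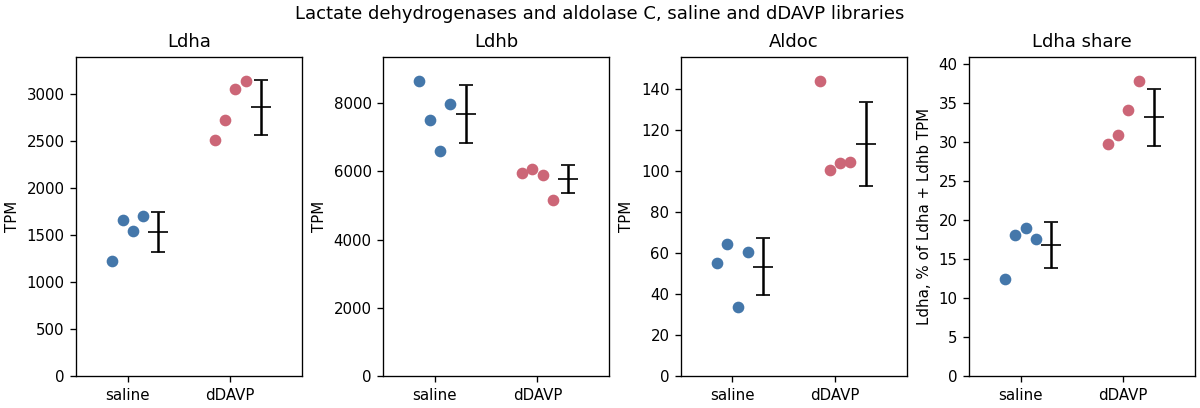
TPM of Ldha, Ldhb and Aldoc, and the percentage of Ldha in the sum of Ldha and Ldhb, in each of 4 saline and 4 dDAVP libraries (points), with mean and SD beside them (black). Ldha sits between 1228 and 1699 TPM under saline and between 2516 and 3144 TPM under dDAVP, and its share between 12.4% and 19.0% against 29.8% and 37.9%.

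Among the 13 listed glycolytic genes none passed the limma threshold. Their median log2 fold change was -0.19, against -0.06 over all genes tested, and 11 of 13 were below 0, against 56.4% of all genes. The aldolases were unequal. Aldoa, the major aldolase, stood at 5457 ± 1023 TPM under saline and 4748 ± 325 TPM under dDAVP (log2 fold change -0.19, limma BH-adjusted p = 0.704). Aldoc, a minor isoenzyme best known from brain, stood at 55.0, 64.5, 33.5 and 60.7 TPM under saline and at 144, 101, 104 and 104 TPM under dDAVP. Every dDAVP library was higher than every saline library, dDAVP library 1 most of all. The log2 fold change of Aldoc was 1.10 (SE 0.26, ratio of means 2.12), larger than that of Ldha but with limma BH-adjusted p = 0.106. The authors' deposited table gave Aldoc an adjusted p of 0.00567. There, 1.04% of the 5011 genes with an adjusted p were below 0.05, and Ldha and Aldoc were the 2 members among them. Aldoc nevertheless made up only 0.649% to 1.33% of aldolase A and C transcripts under saline and 1.99% to 3.23% under dDAVP.

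Pfkfb3, whose product makes the fructose bisphosphate that activates phosphofructokinase, ran the other way. It was at 35.7, 121, 49.1 and 71.6 TPM under saline and at 29.0, 46.7, 20.7 and 13.1 TPM under dDAVP. The groups overlapped, and the log2 fold change of -1.31 (SE 0.44) did not pass (limma BH-adjusted p = 0.297). In each group Pfkfb3 was highest in library 2. The summed level of 9 listed immediate early and handling genes was also highest in library 2 of each group, at 9987 TPM under saline (others 2984 to 9144) and at 7076 TPM under dDAVP (others 486 to 910). None of those 9 genes passed, all 9 were lower under dDAVP, and the 3 of smallest p were Jun, Junb and Hspa1a with log2 fold changes of -2.35, -2.58 and -1.33 (limma BH-adjusted p = 0.108, 0.112 and 0.192). Their part in the Pfkfb3 values was not tested.

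The remaining glycolytic transcripts differed by less. Hk1, the hexokinase that commits glucose to the cell, and Eno1, enolase, had lower values in every dDAVP library than in any saline library, with log2 fold changes of -0.53 and -0.37 (limma BH-adjusted p = 0.315 and 0.370). Hk1 was at 253 to 345 TPM under saline and 168 to 251 TPM under dDAVP. Eno1 was at 1371 to 1707 TPM under saline and 972 to 1298 TPM under dDAVP. The phosphofructokinase subunits Pfkl (log2 fold change 0.20) and Pfkp (-0.39) lay on either side of 0 with overlapping groups. Gpi1, Tpi1, Gapdh, Pgk1, Pgam1 and Pkm, which carry the middle and last reactions, had log2 fold changes between -0.27 (Gapdh) and -0.01 (Tpi1), and their groups overlapped. Glycolytic members with non-overlapping groups thus numbered 1 higher and 2 lower of 13, where 3.56% of all genes were higher and 5.02% lower in this way. Unadjusted p was under 0.05 for 1 higher and 3 lower, against 4.17% and 6.81% of all genes.

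All 6 listed pyruvate entry genes were lower under dDAVP on average, with a median log2 fold change of -0.44, and none passed. The 4 members that encode subunits of the pyruvate dehydrogenase complex had a median of -0.47. Of these, 3 had non-overlapping groups with dDAVP lower (5.02% of all genes). Pdhx, a further component of the complex that is no member, had overlapping groups. It was at 30.0 to 109 TPM under saline and 33.4 to 50.5 TPM under dDAVP (log2 fold change -0.54, limma BH-adjusted p = 0.626). Dlat, the acetyltransferase core, was at 163, 152, 230 and 212 TPM under saline and at 150, 135, 113 and 95.0 TPM under dDAVP. Its highest dDAVP library was just under its lowest saline library (log2 fold change -0.61, SE 0.21, limma BH-adjusted p = 0.310). Pdha1, the alpha subunit of the decarboxylating component, was at 339, 346, 351 and 449 TPM under saline and at 327, 283, 244 and 227 TPM under dDAVP. The groups met closely but did not overlap (log2 fold change -0.46, SE 0.17, limma BH-adjusted p = 0.356). Dld, the dehydrogenase that this complex shares with the oxoglutarate complex, was at 196 to 212 TPM under saline and 109 to 188 TPM under dDAVP (log2 fold change -0.49, limma BH-adjusted p = 0.382). Pdhb, the beta subunit, overlapped between groups by its ranges of 363 to 478 and 240 to 411 TPM (-0.42, limma BH-adjusted p = 0.447). The inhibitory kinases Pdk2 and Pdk3 had log2 fold changes of -0.24 and -0.33 with overlapping groups (limma BH-adjusted p = 0.796 and 0.693).

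All 14 genes counted with the citric acid cycle had a log2 fold change below 0, with a median of -0.30, and none passed. The range was -1.32 to -0.09, and its low end was Idh1, which like Mdh1 (-0.30) encodes a cytosolic enzyme. Idh2, the mitochondrial NADP-dependent isocitrate dehydrogenase, had the smallest p. It was at 1084, 977, 1109 and 1043 TPM under saline and at 959, 678, 817 and 612 TPM under dDAVP. No dDAVP library reached the lowest saline library (log2 fold change -0.48, SE 0.16, limma BH-adjusted p = 0.284). Suclg1 and Suclg2, the shared alpha and the GTP-forming beta subunit of succinyl-CoA ligase, also had non-overlapping groups, at -0.30 and -0.41 (limma BH-adjusted p = 0.448 and 0.416). The ATP-forming beta subunit Sucla2 overlapped (-0.24).

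Idh1, the cytosolic counterpart of Idh2, had the largest difference of the cycle group and the widest spread. It was at 170, 117, 428 and 83.2 TPM under saline and at 64.1, 95.6, 33.9 and 83.8 TPM under dDAVP. Saline library 3 stood far above the rest, and the groups overlapped (log2 fold change -1.32, SE 0.47, limma BH-adjusted p = 0.321; -0.86 without saline library 3). That library also had the highest summed level of the 4 listed proximal tubule markers, 38686 TPM, against 905 to 9720 TPM in the other saline libraries and 1476 to 13039 TPM under dDAVP. The 3 of these markers with the smallest p were Gpx3, Slc34a1 and Kap, with log2 fold changes of -1.30, -1.07 and 0.79 (limma BH-adjusted p = 0.680, 0.751 and 0.769). Their part in the Idh1 values was not tested.

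The remaining cycle enzymes had overlapping groups. Ogdh and Dlst, components of the oxoglutarate dehydrogenase complex, had log2 fold changes of -0.58 and -0.21 (limma BH-adjusted p = 0.371 and 0.811). The NAD-dependent isocitrate dehydrogenase subunits Idh3a, Idh3b and Idh3g had values of -0.37, -0.34 and -0.11. Fumarase Fh1 was at -0.20, cytosolic malate dehydrogenase Mdh1 at -0.30 and mitochondrial Mdh2 at -0.21. Cs, citrate synthase, which opens the cycle, was the least different at -0.09 (limma BH-adjusted p = 0.891).

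Over all 35 members, 32 (91.4%) had a log2 fold change below 0, and 9 had non-overlapping groups with dDAVP lower, against 5.02% of all genes. Unadjusted p was under 0.05 for 15 members with lower values, against 6.81% of all genes, and for 2 with higher values, against 4.17%. The count of 15 depended on single libraries: it was 7 without dDAVP library 3 or 4, 8 without saline library 1, 10 without dDAVP library 2 and 11 to 14 without each of the others. It was 7 without both saline libraries 3 and 4, where 28 of 35 members were below 0. These genes share libraries and are not independent replicates. Summed over its members, pyruvate entry was at 1413 to 1732 TPM under saline and 987 to 1316 TPM under dDAVP, and the citric acid cycle was at 7459 to 8984 and 6185 to 7410 TPM, so that neither pair of ranges overlapped. Glycolysis overlapped, at 11230 to 15332 against 10325 to 11764 TPM. Whether the steps differ from each other was not tested.

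**Figure D2:**
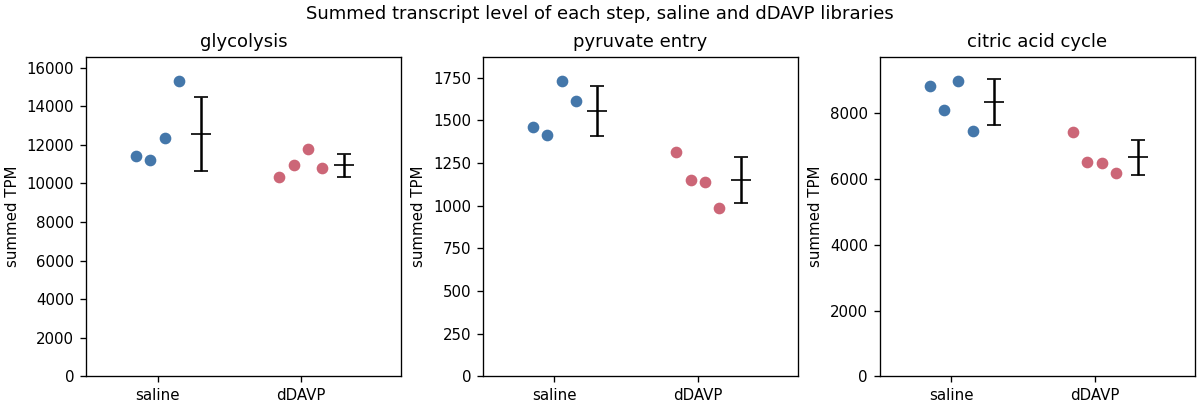
Summed TPM of the listed glycolytic, pyruvate entry and citric acid cycle members in each of 4 saline and 4 dDAVP libraries (points), with mean and SD (black). The dDAVP libraries lie below all saline libraries for pyruvate entry (987 to 1316 against 1413 to 1732 TPM) and the citric acid cycle (6185 to 7410 against 7459 to 8984 TPM), and overlap with them for glycolysis.

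Summed levels of some cell type markers also differed between the groups, in both directions. All 12 intercalated cell markers were listed and all 12 were lower under dDAVP, none past the threshold; Hmx2, Slc4a9 and Rhbg had the smallest p (log2 fold changes -1.02, -0.94 and -1.01, limma BH-adjusted p = 0.0755, 0.0758 and 0.0769). Their summed level was 6869 to 8526 TPM under saline and 4081 to 5620 TPM under dDAVP, without overlap. Of 10 principal cell markers 9 were listed and summed to 31315 to 34820 TPM under saline and 68993 to 92456 TPM under dDAVP, with 6 of the 9 above 0 and 3 below. Without Aqp2 and Aqp3 the other 7 summed to 7038 to 11541 and 9909 to 11824 TPM, which overlapped. Among the 9 the water channels Aqp2 and Aqp3 rose (log2 fold changes 1.59 and 1.03, limma BH-adjusted p = 0.0028 and 0.0241) and Scnn1a, a sodium channel subunit, fell (-1.03, limma BH-adjusted p = 0.0215). With no trend in the variance Aqp2 passed (adjusted p = 0.00707), and Aqp3 and Scnn1a did not (0.11 and 0.0706). No listed marker could be at 0, since the table holds only genes above 10 TPM in every library. In such bulk samples fewer cells of a type and less RNA per cell cannot be told apart, and the part of cell composition in the enzyme values was not tested. Because TPM sums to a fixed total, the gain of Aqp2, from 20171 ± 1573 to 60871 ± 8577 TPM (SD, n = 4 each), also lowers the share left for other genes. With scaling by the median of ratios, which sets the median of all genes to 0, the median log2 fold change was -0.125 for glycolysis, -0.377 for pyruvate entry and -0.237 for the citric acid cycle, and that of Ldha was 0.965.

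Markers of other segments and tissues were also few in the dDAVP table. The 2 listed markers of the thick ascending limb, Kcnj1 and Umod, did not pass (log2 fold changes 0.54 and -0.29), nor did the 2 of the distal convoluted tubule, Calb1 and Klk1 (-0.68 and -1.29), or the 3 of stroma, endothelium and blood, Plvap, Emcn and Cd74 (0.97, 0.46 and 0.92). Without saline libraries 3 and 4, 28 of 35 members were below 0 and Ldha still passed (log2 fold change 1.00, limma BH-adjusted p = 0.0457). All 14 cycle genes and 5 of 6 pyruvate entry genes were still below 0 then, with medians of -0.33 and -0.36. Glycolysis did not keep its offset: 8 of 13 were below 0 and the median was -0.04.

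**Figure D3:**
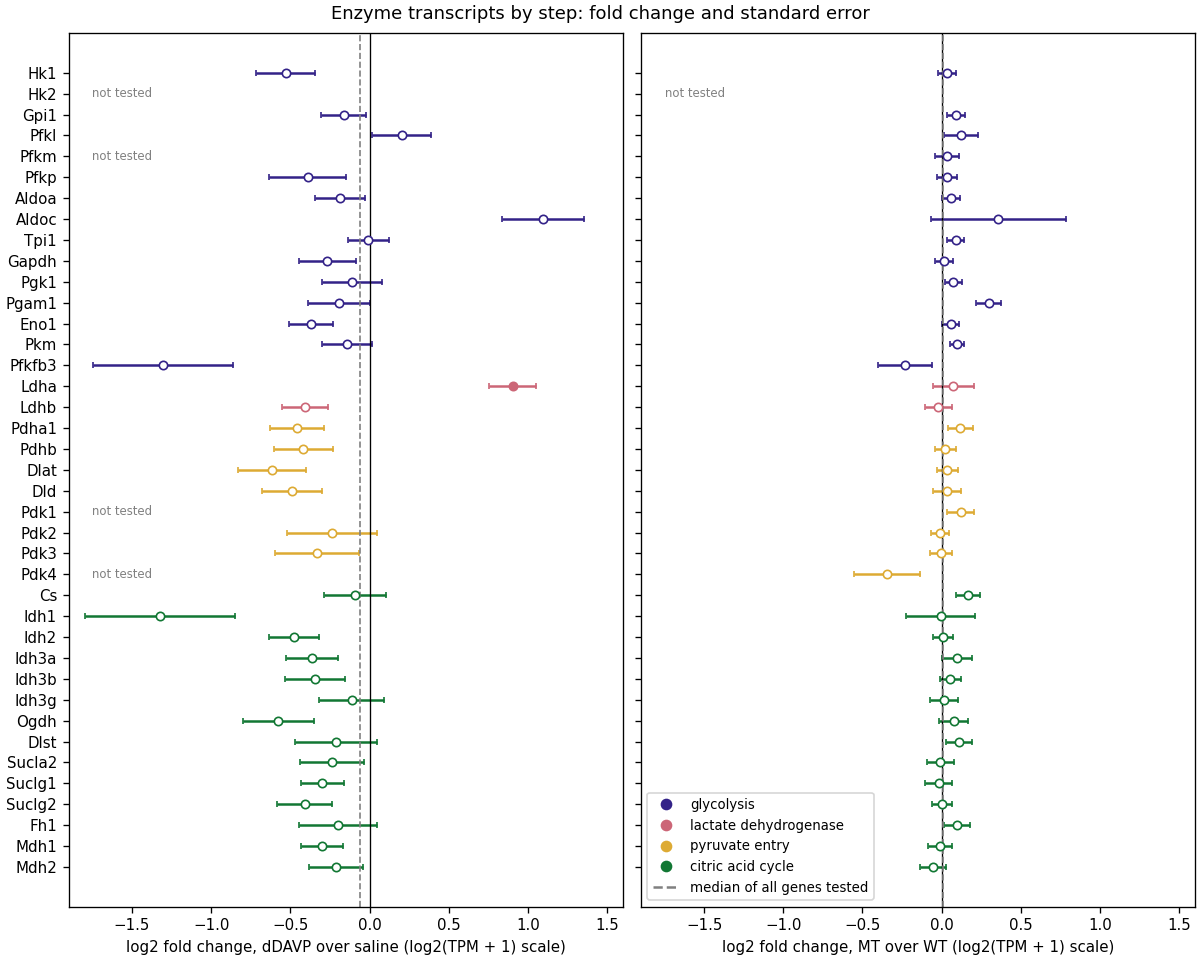
Log2 fold change (points) with SE (bars) of every tested member, ordered by step, for dDAVP over saline (left) and MT over WT (right), on the log2(TPM + 1) scale; a filled point passed the adjusted threshold and the dashed line is the median of all genes tested. Ldha at 0.90 is the only filled point, all 14 citric acid cycle genes and all 6 listed pyruvate entry genes lie left of 0 in the dDAVP comparison, and most members lie close to 0 in the MT comparison.

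Genes of neighbouring pathways that are not members gave few differences. None of the listed genes of the following lists passed the limma threshold. Of 20 other glycolytic isoenzymes and regulators 5 were listed and 4 were below 0. Pgam2, the muscle-type phosphoglycerate mutase, was at 881 ± 177 TPM under saline and 449 ± 215 TPM under dDAVP (SD, n = 4 each; log2 fold change -1.07, limma BH-adjusted p = 0.199). Of 18 other pyruvate entry and citric acid cycle genes 12 were listed, and 11 of them were below 0, with a median of -0.26. The succinate dehydrogenase subunits Sdhc and Sdha were at -0.34 and -0.30 and cytosolic aconitase Aco1 at -0.34 (limma BH-adjusted p = 0.448, 0.508 and 0.549). Of 13 glucose and lactate transporters 5 were listed, and Slc2a1, the main basal glucose transporter, was at 299 ± 64.1 and 223 ± 24.8 TPM (log2 fold change -0.40, limma BH-adjusted p = 0.453). Of 7 pentose phosphate genes 5 were listed, 3 of them below 0, with transketolase Tkt at -0.48 (limma BH-adjusted p = 0.370). Of 6 gluconeogenic genes 4 were listed and all 4 were below 0, with Fbp1 at -0.53 and Pck1 at -0.45 (limma BH-adjusted p = 0.816 and 0.873). Both are abundant in proximal tubule and were highest in saline library 3, as Idh1 was.

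Ldha is also known as a target of hypoxia-inducible factors, so genes of the hypoxia response were set beside it. Of 17 such genes 8 were listed, 4 above and 4 below 0, with a median of 0.00, and none passed. Adm, adrenomedullin, was at 255 ± 206 TPM under saline and 31.7 ± 24.9 TPM under dDAVP with overlapping groups (log2 fold change -2.78, limma BH-adjusted p = 0.137). Vhl was at -0.70 and Ndrg1 at 0.48 (limma BH-adjusted p = 0.409 and 0.423).

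Over the 8 libraries the genes whose log2(TPM + 1) pattern was most like that of Ldha were Abhd3, Aqp2, Cpt1a, Ctsh and Lcn2, with Pearson correlations of 0.95, 0.95, 0.94, 0.94 and 0.93. These correlations include the difference between the groups and describe these libraries only. Among members, Aldoc came nearest at 0.81, rank 78 of the other genes, and Ldhb was at the far end at -0.91, rank 5015.

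In the β-catenin table the enzyme transcripts of MT and WT units were close. Aqp2 was at 11231 to 27628 TPM in WT and 12217 to 22497 TPM in MT units. Its means in the dDAVP table were 20171 TPM under saline and 60871 TPM under dDAVP. Crem, which passed the threshold under dDAVP, averaged 51.9 TPM in WT and 50.5 TPM in MT. In the dDAVP table Crem averaged 61.3 TPM under saline and 356 TPM under dDAVP. The tables were not tested against each other. The unit, the mean of its 3 libraries, was the replicate (4 WT against 4 MT), and 38 members were tested, since Hk2 averaged below 1 TPM (0.736 in WT and 0.438 in MT). No member passed, and no gene of 15013 did (limma, 0.0%); with the 24 libraries fitted and the unit as a random effect no member passed either. Unadjusted p was under 0.05 for 683 genes (4.55%) and for 1 member. The median log2 fold change of the members was 0.04, against 0.01 over all genes. By step it was 0.07 for glycolysis, 0.03 for pyruvate entry and 0.01 for the citric acid cycle. Of the 38 members 10 were below 0 (26.3%), against 46.8% of all genes. By step, 1 of 14 glycolytic, 3 of 8 pyruvate entry and 5 of 14 citric acid cycle genes were below 0. The count of 10 ranged from 4 to 17 when single units were left out, and these genes share units. Without WT unit 2 or MT unit 4 the medians of pyruvate entry (-0.020 and -0.016) and of the citric acid cycle (-0.013 and -0.027) were below 0.

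Ldha was at 1077, 1720, 1219 and 1210 TPM in the WT units and at 1396, 1310, 1367 and 1338 TPM in the MT units. WT unit 2 was the highest and WT unit 1 the lowest, so that the WT range enclosed all MT units (log2 fold change 0.07, SE 0.13, limma BH-adjusted p = 0.999). Ldhb was at 6085, 5083, 6312 and 5809 TPM in WT and at 5127, 5883, 5792 and 6135 TPM in MT, again overlapping (log2 fold change -0.02, SE 0.09, limma BH-adjusted p = 0.999). The signs of these values turned when single units were left out. Aldoc varied most, at 34.1, 122, 33.9 and 43.8 TPM in WT and 103, 68.7, 56.8 and 42.4 TPM in MT. Its highest unit was WT unit 2, as for Ldha (log2 fold change 0.36, SE 0.43).

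Pgam1, the phosphoglycerate mutase of most tissues, was the member with non-overlapping groups here. It was at 90.7, 98.1, 98.0 and 109 TPM in WT and at 122, 117, 137 and 111 TPM in MT. Every MT unit was above every WT unit, the closest pair being WT unit 4 and MT unit 4. The log2 fold change was 0.30 (SE 0.08, unadjusted limma p = 0.00506), which did not survive adjustment (adjusted p = 0.969). Of all genes 1.85% had non-overlapping groups with MT higher and 1.17% with MT lower. Pgam2, which is no member, was the larger mutase transcript at 650 ± 113 TPM in WT and 505 ± 82.1 TPM in MT (SD, n = 4 each; log2 fold change -0.36, limma BH-adjusted p = 0.969). Its share of the pair was 84.0% to 88.9% in WT and 78.3% to 84.9% in MT, which overlapped.

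Of the other members chosen by smallest p, none had groups apart. Pkm, pyruvate kinase, was at 1044, 1106, 1065 and 1079 TPM in WT and 1102, 1172, 1150 and 1178 TPM in MT, overlapping by WT unit 2 alone (log2 fold change 0.10, SE 0.04, limma BH-adjusted p = 0.969). Cs was at 308, 285, 335 and 328 TPM in WT and 321, 339, 356 and 394 TPM in MT, so that 3 MT units were above all WT units (log2 fold change 0.17, SE 0.08). Dlst was at 189, 174, 206 and 200 TPM in WT and 182, 202, 214 and 232 TPM in MT (0.11, SE 0.08). Pdha1 was at 287, 253, 295 and 273 TPM in WT and 273, 285, 305 and 341 TPM in MT (0.12, SE 0.08). For both of these the groups interleaved. Pdk4, a kinase induced by fasting in many tissues, was at 51.8, 29.4, 34.2 and 33.8 TPM in WT and 28.6, 38.3, 28.8 and 20.7 TPM in MT (log2 fold change -0.35, SE 0.21), with WT unit 1 high. The remaining members had log2 fold changes between -0.23 (Pfkfb3) and 0.12 (Pfkl).

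Because this table has no floor of 10 TPM, it also shows which isoenzymes CCD transcripts come from. Hexokinase was almost all Hk1, at 360 ± 25.5 TPM in WT against 0.736 for Hk2. Of the phosphofructokinase transcripts, Pfkp made up 49.8% to 53.2%, Pfkl 28.2% to 35.5% and Pfkm 14.8% to 18.9% in WT units. Of the pyruvate dehydrogenase kinases, Pdk2 made up 64.5% to 70.4%. Ldha was 15.0%, 25.3%, 16.2% and 17.2% of the lactate dehydrogenase transcripts in WT and 21.4%, 18.2%, 19.1% and 17.9% in MT, so that Ldhb was the majority in every unit here as well. Idh2 was 93.7% to 96.4% of Idh1 and Idh2 in WT. By level the order in WT was Ldhb (5822 ± 534 TPM) and Aldoa (4418 ± 107) at the top. Mdh1 (1630 ± 156), Gapdh (1557 ± 41.7), Tpi1 (1478 ± 66.3) and Ldha (1306 ± 283) followed, and these neighbours lay within each other's spread. Near-identical copies could draw reads from some members, but the listed copies summed to between 0.0272% (Aldoa) and 1.83% (Pgam1) of the level of the member.

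**Figure D4:**
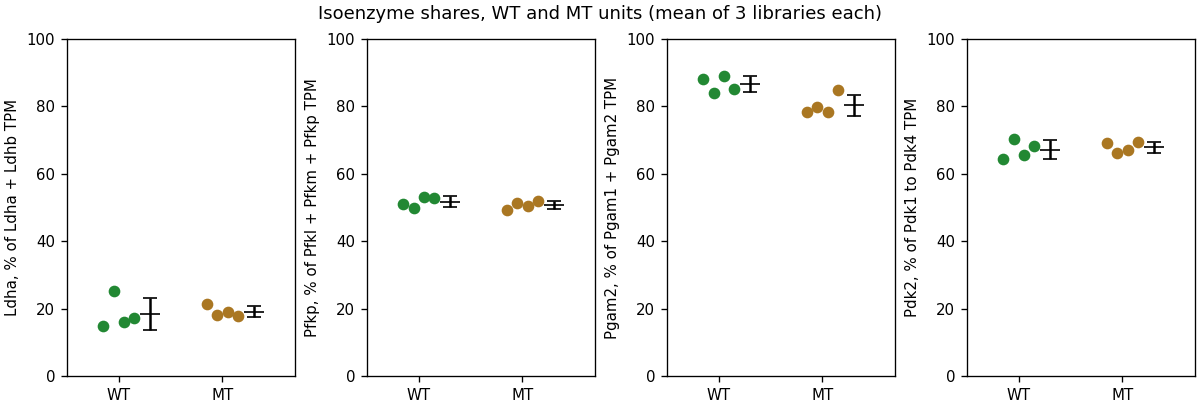
Percentage of Ldha in the lactate dehydrogenase pair, of Pfkp in the phosphofructokinases, of Pgam2 in the Pgam1 and Pgam2 pair and of Pdk2 in the 4 kinases, by TPM, in 4 WT and 4 MT units (points, each the mean of 3 libraries), with mean and SD (black). WT and MT overlap in every panel, with WT unit 2 highest for Ldha at 25.3%.

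Markers of other cell types in this table, with 11 proximal tubule, 6 thick ascending limb, 4 distal convoluted tubule and 10 stroma, endothelium and blood genes tested, gave none past the threshold. The proximal tubule sum was 201 to 4350 TPM in WT and 116 to 1880 TPM in MT, the principal cell sum 25370 to 49003 and 28125 to 43520 TPM, and the intercalated cell sum 8978 to 10467 and 9478 to 10357 TPM. These ranges overlapped between WT and MT, as did those of distal convoluted tubule (213 to 1055 and 317 to 622 TPM) and of stroma, endothelium and blood (484 to 8130 and 301 to 726 TPM). All 11 proximal tubule genes were nevertheless below 0, with a median log2 fold change of -0.85, against 46.8% of all genes below 0. Of the 10 stroma, endothelium and blood genes 4 were below 0 and 6 above. The hemoglobin genes Hbb-bs and Hba-a1 were at -5.92 and -5.25 (limma BH-adjusted p = 0.969 for both). The thick ascending limb sum did not overlap, at 1242 to 2470 TPM in WT and 1009 to 1238 TPM in MT. Of its 6 genes 5 were below 0 and 1 above, and none had non-overlapping groups by itself. Umod, for one, was at 7.27 to 863 TPM in WT and 13.3 to 99.9 TPM in MT. The part of these markers in the enzyme values was not tested. Of the lists of neighbouring pathways, none of 14 other glycolytic, 18 other pyruvate entry and cycle, 10 transporter, 6 pentose phosphate, 5 gluconeogenic and 15 hypoxia genes passed.

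Promoter accessibility was read from the authors' deposited ATAC-seq table, which gives 1 log2 signal per group, a log2 fold change and an adjusted p for each peak, so that no spread over libraries is known here. A gene with several promoter peaks was represented by its strongest, and 31 of the 39 members had a peak. By the adjusted p of the authors' deposited table, 9 of the 31 were lower under dDAVP past 0.05 (29.0%), and 0 were higher. Over all 12507 genes with a promoter peak 35.1% were lower, so the share among members was near the background. The lower ones were Aldoa, Eno1, Gapdh, Hk1, Pkm, Ldha, Pdhb, Mdh1 and Ogdh. The median log2 fold change was -0.42 for the members and -0.48 for all genes. Of all 582 peaks assigned to members 50 were lower (8.59%) and 0 higher, where 5.98% of all 270806 peaks were lower and 0.846% were higher.

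Ldha had its strongest promoter peak at chr7:46845145-46847282, which contains the sequence printed above. In the authors' deposited table its log2 signal was 9.59 under saline and 8.80 under dDAVP, with a log2 fold change of -0.68 (adjusted p 5.31e-05). The promoter peak was thus less open under dDAVP in this table while the transcript was higher. Among the 1599 promoter peaks within 0.5 of its log2 signal the median fold change was -0.46, 80.2% were lower past the threshold, and 2.88% had a larger loss than Ldha. The same value was -0.38 for the Ldhb peak (adjusted p 0.157) and -0.44 for the Aldoc peak (adjusted p 0.113). Peaks of the 2 other genes with TGACGTCA in their windows were at -0.35 (Mdh2, adjusted p 0.0637) and -0.41 (Ogdh, adjusted p 0.000713). The only member above 0 was Pgam1, by a weak peak with a log2 signal of 1.20 and 1.77 and an adjusted p of 0.79.

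**Figure D5:**
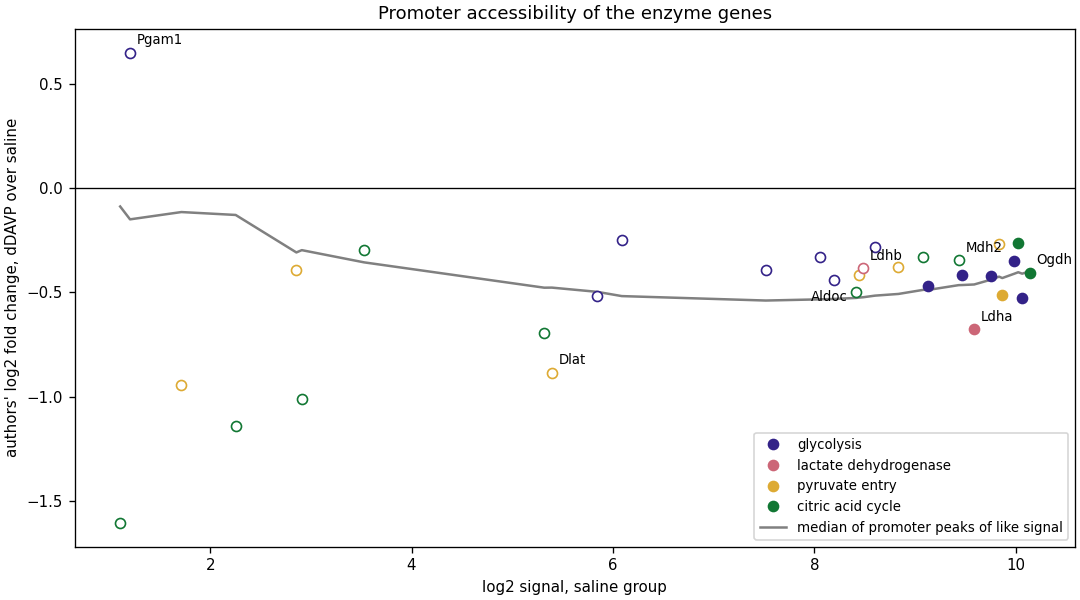
Authors' log2 fold change of the promoter peak (dDAVP over saline) against its log2 signal in the saline group, for 31 members coloured by step; filled points had an adjusted p under 0.05 and the grey line joins the medians of all promoter peaks of like signal at each member. Of all 31 members 19 lie above the grey line and 12 below it. Of the 19 members with a log2 signal of 8 or more, 15 lie above it and Gapdh, Ldha (-0.68), Ogdh and Pdhb below it. Pgam1 is the single point above 0.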

How the data were processed

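RNA-seq and ATAC-seq of microdissected mouse CCDs were used as deposited. Per the labels' protocols, cDNA came from the SMARTer V4 kit and libraries from Nextera XT; STAR, RSEM, Bowtie2, MACS2, DiffBind and cutadapt 3.4 are named, with the build mm10, in the submitters' processing notes. Both RNA tables hold TPM deposited by the authors, a value scaled by transcript length and by the library. The dDAVP table keeps genes whose lowest TPM is above 10, per the file headers. Depth cannot be had from TPM, so the depth of each library is unknown and no counting interval is given; in the dDAVP table a library's listed TPM add up to 895155 to 925759. The authors' adjusted p-values and log2 fold changes, per the file headers, come from the deposited tables, and log2 group signal likewise for ATAC-seq.

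Here, limma 3.58.1 (eBayes with trend, R 4.3.3) was run on log2(TPM + 1) two-sided, keeping genes that averaged at least 1 TPM. The p-values were adjusted by Benjamini and Hochberg's method (BH) over all 5035 or 15013 genes, with a threshold of 0.05. The mean of 3 libraries of a unit was the replicate in the β-catenin table. Tables were not tested against each other. On simulated data the test recovered 35 of 100 genes changed by a log2 of 1 and 92 of 100 changed by 2 in the dDAVP table, and 81 and 87 of 100 in the β-catenin table, with 5 and 17 calls among unchanged genes.

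The members and lists were chosen with earlier results of these data known. Values in every sample are given for Ldha and Ldhb, for members past the threshold, and for the 2 members of smallest p in each step; from other lists, genes past the threshold or up to 3 of smallest p are named. Promoter sequences came from RefSeq (GRCm38.p6, the build of mm10). No 2 libraries were identical. Alternatives (pseudocount, filter, scaling, block, variance trend, leaving out libraries) are in the closing section.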

Additional observations from a re-analysis of the deposited data

Results flagged for a closer look

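Of 32 groups of 4 values examined (the named members by group), 2 had a sample far from the others by Dixon's ratio of gap to range, past its critical value; chance marks about 1 in 20 groups. Aldoc in dDAVP library 1 was 143.94 TPM, with a ratio of 0.911, against 101 to 104 TPM in the other dDAVP libraries. Pdha1 in saline library 4 was 449.26 TPM, with a ratio of 0.889, against 339 to 351 TPM in the other saline libraries. Without these libraries the log2 fold change of Aldoc was 0.98 and that of Pdha1 was -0.36, and neither passed.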

How the results depend on the processing

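Ldha was the single member past the threshold in the dDAVP comparison, and the number of members past it became 0 with a replicate block (Ldha adjusted p = 0.0792), with eBayes without a trend (0.111) and in some fits without 1 library (0 to 1 over the 8 such fits); its log2 fold change was 0.80 to 0.96 over those fits. The cause was not tested, beyond fewer samples in the fits that leave one out. Ldha stayed past the threshold with the median of ratios (limma BH-adjusted p = 0.0151), quantile normalization (0.0156) and a mean TPM of 50 or more (0.0158). It also passed with pseudocounts of 0.1 and 5 and with no filter. Those settings could hardly change it, since every listed gene is above 10 TPM and Ldha far above. The replicate numbers are not stated to pair the samples: correlations of deviations were 0.19, 0.23, 0.0873 and -0.149 in the dDAVP table and -0.00197, 0.0397, -0.0285 and -0.0167 in the β-catenin table. With the block Aqp2 passed (adjusted p = 0.0432), Aqp3 and Scnn1a did not (0.142 and 0.112), and 8 of all genes did, against 35 without it; 18 did with eBayes without a trend. Without saline libraries 3 and 4, an alternative chosen after seeing the data, the glycolysis median was -0.036. Without single units of the β-catenin table Ldha ranged from -0.012 (without WT unit 1) to 0.213 and Ldhb from -0.084 to 0.032; Ldhb turned to 0.002 without WT unit 1, 0.020 without WT unit 3 and 0.032 without MT unit 1. Pfkfb3 gave no value under a mean TPM of 50 or more. Of the MT medians, pyruvate entry turned to -0.020 without WT unit 2 and -0.016 without MT unit 4, the citric acid cycle to -0.013 and -0.027 in the same fits, and all genes to -0.002 without WT unit 3 and -0.001 with the median of ratios. The median of all genes under dDAVP turned to 0.003 with quantile normalization. The other members' values and step medians for which alternatives were computed kept direction and call. With 4 libraries a group, the simulated recovery of 35 of 100 genes at a log2 change of 1 limits what the dDAVP comparison could call.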
